A study of Mus musculus with 19 samples.

Results

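The clustered protocadherin genes were taken as every mouse gene whose symbol begins with Pcdha, Pcdhb or Pcdhg followed by a number, a letter or c. Of the 35596 genes in the count table, 58 met this rule: 14 in the alpha cluster, 22 in the beta cluster and 22 in the gamma cluster, with 89 annotated transcripts in all. They were measured by stranded polyA mRNA-seq of whole vomeronasal organs (VNOs) from female mice at postnatal day 21. The Smad4 conditional knockouts (cKO) of the AP-2εCre line, AP-2εCre+/-/Smad4 flox/flox, were set against Smad4 flox/flox controls (called flox here) and AP-2εCre+/- heterozygous controls (called Het). The OMPCre line had the same design, with OMPCre+/-/Smad4 flox/flox cKO mice, Smad4 flox/flox controls and OMPCre+/- heterozygotes, and each of the 6 groups held 3 libraries. The labels call the flox controls wild type, and the study's design text gives them as Smad4 flox/flox. AP-2εCre is active in basal sensory neurons of the VNO (VSNs) while they are immature, and OMPCre in mature VSNs, both apical and basal. Each Cre comes from an allele inserted into the gene it is named for. Cells of the organ without Cre activity kept Smad4 and were part of every library. A further AP-2εCre library, titled as a heterozygote but labelled with the cKO genotype, was kept out of the main comparisons. It entered only an alternative in which it was added to the heterozygotes.

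Clustered protocadherins are cell-surface adhesion proteins that pair with identical copies on a facing membrane. In the alpha and gamma clusters, each gene has a large first exon with its own promoter, which encodes the extracellular, membrane-spanning and inner juxtamembrane part, and it is spliced to a set of downstream exons that all genes of the cluster share and that encode a common cytoplasmic end; beta genes have a single coding exon and no shared end. In neurons each cell uses a few of the alternative promoters, chosen with the help of DNA methylation, CTCF and cohesin, while the C-type genes at the end of the alpha and gamma clusters follow separate rules. The resulting sets of isoforms let neurites and axons tell self from non-self, and in olfactory sensory neurons they take part in axon convergence. A library of a whole organ adds up the choices of all its cells, so a higher level cannot be told apart from more cells that use the promoter, and fewer cells of a type cannot be told apart from less RNA per cell.

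All members lay on the plus strand of chromosome 18 (GRCm38/mm10). The alpha cluster reached from 36930184 to 37187661, the beta cluster from 37264938 to 37524479 and the gamma cluster from 37661793 to 37841873. Symbol Pcdha11 belonged to 2 gene identifiers, named copy 1 and copy 2 here in genomic order. Copy 1 (ENSMUSG00000007440.10) starts at 37005203, next to the start at 37005320 that the RefSeq table of the same build gives for Pcdha10. Pcdhgb8 is annotated as a polymorphic pseudogene.

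The libraries held 43385516 to 134042284 estimated counts, of which the members took 26415 to 91748, or 0.0483% to 0.0811%. Of the 58 members, 57 had more than 3 counts in each of the 18 libraries and 53 had at least 50; the exception at the low end was Pcdha8, with 0 to 164 counts. Defining markers of VSNs were present in every library, with the lowest value at 2.14 TPM for Tfap2e and the highest at 678 TPM for Gnai2. At other ages, the paper reported loss of Smad4 protein in the targeted neurons of both lines by immunostaining. For the AP-2εCre line it also reported loss by in situ hybridization to the floxed exon. The counts here cover the whole gene in all cells of the organ, so they do not measure that loss. Smad4 itself was not called in either cKO. In edgeR (quasi-likelihood F test, Benjamini-Hochberg adjusted p), the log2 fold change was -0.09 (SE 0.30, adjusted p = 0.955) in the AP-2εCre cKO and -0.35 (SE 0.09, adjusted p = 0.909) in the OMPCre cKO, where the cKO libraries at 54.2 to 62.5 CPM (counts scaled to library size) lay below the controls at 65.2 to 83.9.

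How far a read can be given to 1 member differed between the clusters. Each transcript was cut into windows of 75 bases, the read length, and a window was called unique when no transcript of another gene held it. In the beta cluster the genes had a median of 98.8% unique windows, with a range from 91.0% to 100%. In the gamma cluster the median was 56.0% (36.2% to 73.6%), and in the alpha cluster 42.4%, from 10.8% for Pcdha4 to 57.3% for Pcdha11 copy 2. Windows held by at least 5 other members of the cluster covered a median of 2892.5 bases of an alpha gene and 2121 of a gamma gene. Genes outside the members also held some windows, 40.0% of those of Pcdha4, 8.39% of those of Pcdha6 and 4.82% to 8.24% of those of a gamma gene. Reads in shared windows were divided among the members by salmon's model, so beta values rest on reads of their own and alpha and gamma values rest in part on that division. Read-through genes that join exons of the clusters, Gm37013, Gm37388 and Gm42416, held at most 39, 44 and 0 counts in a grouped library.

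**Figure D1:**
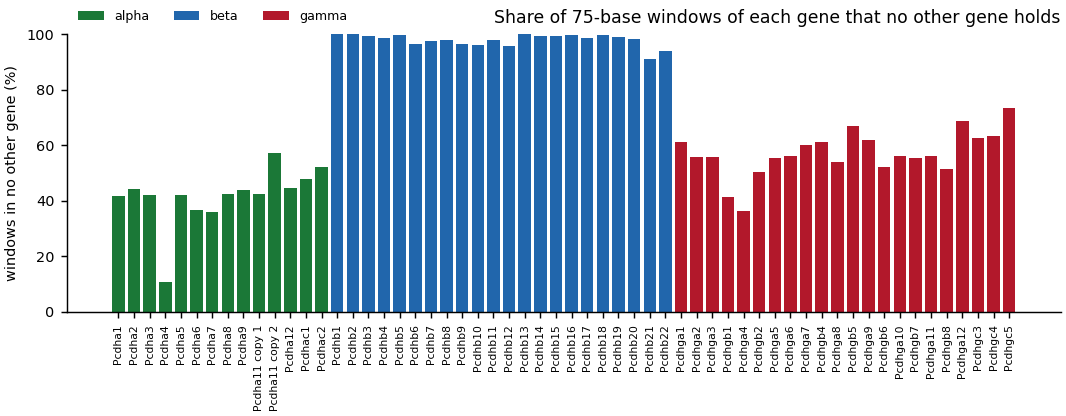
Bars show, for each of the 58 genes in genomic order, the percentage of its 75-base windows that no other gene holds. The 22 beta genes stand between 91.0% and 100%, and all alpha and gamma genes lie lower, with medians of 42.4% and 56.0%.

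In the control libraries, 4 members stood out by their level per length, and the others were low. The mean over the 12 controls was 23.2 TPM (SD 4.89) for Pcdhgc3, a C-type gene of the gamma cluster, 18.8 (SD 5.17) for Pcdhb1, the first gene of the beta cluster, 13.4 (SD 4.24) for Pcdhac2, a C-type gene of the alpha cluster, and 10.2 (SD 3.78) for Pcdhgc4, a C-type gene of the gamma cluster. Together these 4 took 44.3% to 52.3% of the members' summed TPM, and the level of Pcdhgc4 among them rested mostly on 1 short transcript described below. The other 54 members had mean levels from 0.107 to 3.16 TPM with a median of 1.07, and 24 of the 58 were under 1 TPM. In the beta cluster, Pcdhb9 came next at 3.16 TPM (range 2.09 to 4.77) and Pcdhb17 after it at 1.99 (1.45 to 3.07), and the lowest was Pcdhb2 at 0.391 (0.121 to 0.849). The gamma cluster had Pcdhgb6 at 3.02 TPM (2.37 to 4.55) after Pcdhgc3 and Pcdhgc4, and Pcdhgb8 at 0.438 (0.129 to 0.998) as its lowest. The alpha cluster had Pcdhac1 at 1.89 TPM (1.09 to 2.87) and Pcdha4 at 1.78 (0.964 to 3.40) after Pcdhac2, and Pcdha8 at 0.107 (0 to 0.205) as its lowest.

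None of the 57 pairs of neighbours in the order of mean TPM had ranges over the 12 controls that stayed apart. Within single libraries some neighbours kept their order in 12 of 12 controls: Pcdhb1 lay above Pcdhac2, Pcdhgc4 above Pcdhb9 and Pcdhga7 above Pcdhb17. Pcdhgc3, Pcdhb1 and Pcdhac2 each stayed at or above 6.046 TPM in every control library, while no member outside the leading 4 passed 4.77 TPM apart from Pcdhgc5, another C-type gamma gene, which reached 7.69. By kind of gene, the median level, given with no test, was 1.16 TPM over the 12 alternative alpha genes, 1.17 over the 12 gamma A genes, 1.63 over the 7 gamma B genes and 0.795 over the 22 beta genes.

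Per transcript, Pcdhgc3 and Pcdhgc4 differed in where their counts lay. Of the Pcdhgc3 counts, a median of 81.5% over the 18 libraries (70.6% to 91.6%) fell on ENSMUST00000076807.6, the coding transcript with the full first exon of 2568 bases, and 18.5% (8.36% to 29.0%) on ENSMUST00000192103.1, which has 5 exons, the first of 366 bases, and is annotated as a target of nonsense-mediated decay. Of the Pcdhgc4 counts, a median of 90.4% (84.0% to 96.0%) fell on ENSMUST00000195239.1, a transcript with a first exon of only 153 bases and 2119 bases in exons that other gamma genes share, where 6.87% of the windows were unique. The full-length Pcdhgc4 transcript, ENSMUST00000066140.12, with a first exon of 2905 bases, took 7.99% (0% to 15.5%). It had a mean of 0.395 TPM over the controls, against 9.75 TPM for the short transcript. Pcdhgc5 behaved alike: a transcript of 593 bases with 147 of its own, ENSMUST00000193941.1, had 0 counts in most libraries and up to 385 in the others, and it carried the Pcdhgc5 levels of 7.69 TPM in AP2e flox replicate 2 and 7.48 TPM in AP2e Het replicate 2, against 0.510 TPM or less in the other AP2e controls.

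Levels were therefore also computed from the 81 of 89 transcripts with at least 1000 bases outside exons of other members, a choice made after the values above were seen. All 58 members had such a transcript. Pcdhgc3 (23.2 TPM), Pcdhb1 (18.8) and Pcdhac2 (13.4) kept the first places. Pcdhgc4 went from place 4 to place 52, at 0.484 TPM (SD 0.145, n = 12), and Pcdhgc5 from place 18 to place 56, at 0.350 TPM (SD 0.127). The place of Pcdhgc4 in the gene table thus rested on 1 transcript with few unique windows, and whether those reads came from its first exon was not tested.

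**Figure D2:**
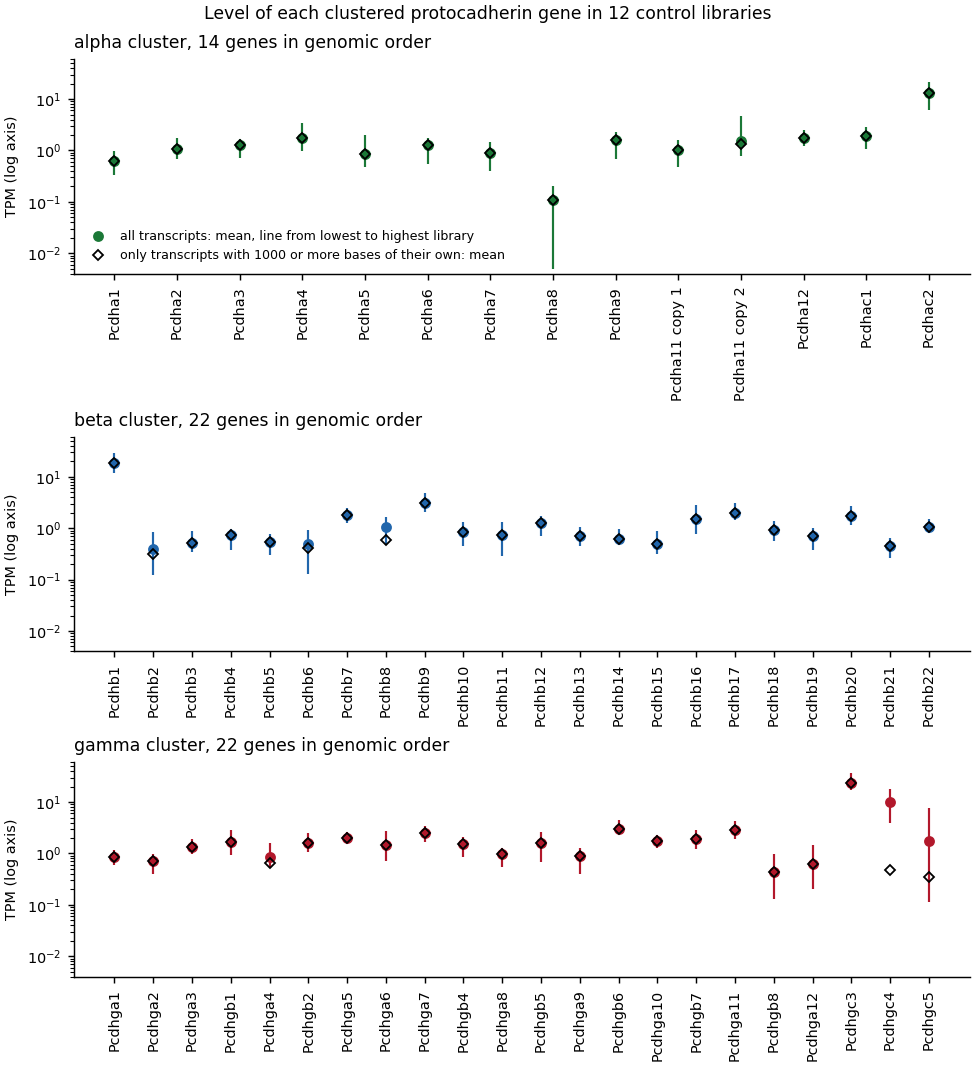
The 3 panels give the level of each gene of the alpha, beta and gamma clusters in TPM on a log axis, with the mean over the 12 controls as a dot and a line from the lowest to the highest library (the line of Pcdha8, whose lowest library is at 0, is cut at the lower end). Open diamonds count only transcripts with at least 1000 bases of their own and leave the dot clearly for Pcdhgc4 (10.2 against 0.484 TPM) and Pcdhgc5.

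The leading gene of each cluster took a large share of it in every library. Pcdhac2 made up 36.6% to 50.7% of the alpha sum of TPM over the 18 libraries, with a median of 46.0%. Pcdhb1 made up 40.2% to 50.4% of the beta sum (median 45.5%), and Pcdhgc3 30.9% to 42.7% of the gamma sum (median 36.3%). Group medians of the Pcdhb1 share ran from 44.1% in OMP flox to 48.3% in OMP Het. Pcdhgc4 ran from 7.49% to 22.5% of the gamma sum, and its 3 lowest shares among the OMPCre libraries were the OMP Het libraries at 7.49%, 10.7% and 12.0%.

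Over all transcripts, the gamma cluster was the largest by summed TPM in every library, with 44.0% to 53.9% of the members' total. The beta cluster followed with 27.0% to 33.4% and the alpha cluster with 16.5% to 25.1%. The gamma sum was 46.8 to 97.15 TPM (median 66.9). It was 37.9 to 86.4 (median 53.0) from transcripts with at least 1000 bases of their own. As deposited, the gamma sum was 64.9 ± 6.91 TPM in AP2e flox, 62.3 ± 8.88 in AP2e Het and 87.5 ± 8.43 in AP2e cKO (SD, n = 3). In the OMPCre line it was 61.6 ± 16.02 in flox, 66.3 ± 19.1 in Het and 70.6 ± 15.0 in cKO. The AP2e cKO libraries were at 97.1, 81.5 and 84.0 TPM, and the 6 controls of that line lay between 52.0 and 71.7, so the groups did not overlap.

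On the scale of TMM-normalized CPM, which corrects for differences in library composition, the gamma sums of the AP2e cKO libraries were 356, 343 and 351 CPM, and those of the controls ran from 270.5 to 338. Pcdhgc3, the largest part of the gamma sum, lay above all these controls by itself in CPM. Whether the gap holds for the other gamma genes together was not tested. The ratio of cKO to controls in the gamma sum was 1.38-fold in TPM and 1.154-fold in CPM. Within the libraries named by letter and number in the files it was 1.33-fold in TPM (2 cKO, 4 controls), and within those named by line 1.465-fold (1 cKO, 2 controls). With TPM divided by the TMM factor, these ratios were 1.178-fold and 1.344-fold. For the beta cluster the ratio in that line was 1.35-fold in TPM and 1.11-fold in CPM, and for the alpha cluster 1.27-fold and 1.06-fold, with overlapping groups in both. In the OMPCre line the ratios in TPM were 1.01-fold for alpha, 0.996-fold for beta and 1.10-fold for gamma, all with overlapping groups. Within a name series, the gamma ratio of that line was 1.148-fold (letter and number) and 1.045-fold (line) in TPM, with overlap. In TPM divided by the TMM factor it was 1.129-fold and 1.127-fold, and the cKO libraries lay above the controls of their series in both (2 cKO and 4 controls, 1 cKO and 2 controls). These sums got no p-value, since the members were chosen together.

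In the OMPCre line the summed TPM differed between 2 series of library names. The 3 libraries named by line, 1 in each group, had alpha sums of 39.9 to 43.6 TPM, beta sums of 51.3 to 61.0 and gamma sums of 78.6 to 88.1. The 6 named by letter and number had 20.1 to 27.8, 26.6 to 41.6 and 46.8 to 66.5, so the series did not overlap in any cluster. In CPM the alpha sums still did not overlap, at 195 to 209 against 154 to 188, and the beta and gamma ranges did, with gamma at 290.1 to 345 against 277 to 331. What the names stand for was not given in the sources used here, and single members are compared between libraries in CPM below unless another unit is given.

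**Figure D3:**
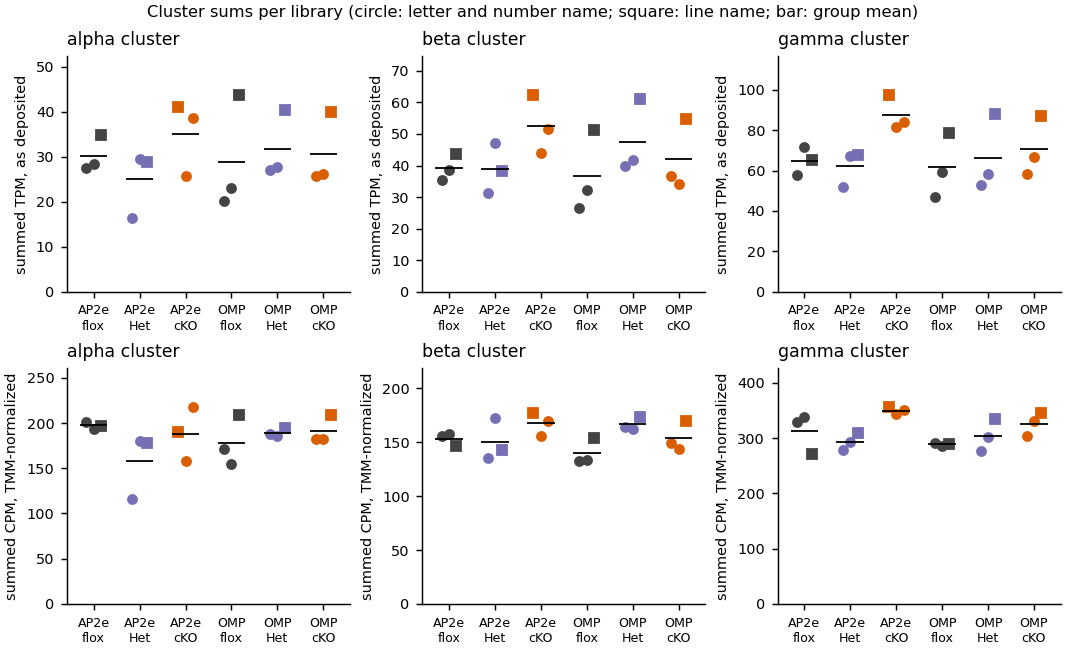
Each point is the sum over the genes of a cluster in 1 library, in deposited TPM (upper row) and TMM-normalized CPM (lower row), by group, with the group mean as a bar and squares for libraries named by line. The squares of the OMPCre line stand above its circles in TPM. In the gamma panels the 3 AP2e cKO points lie above all 6 AP2e controls on both scales. These sums include Pcdhgc3, which lay above the same controls by itself in CPM.

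No single protocadherin was called in the AP2e cKO. Against the 6 controls of the AP-2εCre line, 0 of 58 members had an edgeR adjusted p below 0.05 over 18495 genes, where 0.0378% of all genes were called; DESeq2 called 0 members as well, and 1.67% of all genes. The number with an unadjusted p under 0.05 was 3, or 5.17%, against 10.2% of all genes. By sign, 44 of 58 members were higher in the cKO, or 75.9%, against 50.6% of all genes. Against flox alone 35 were higher, with a members' median log2 fold change of 0.07, and against Het alone 42, with a median of 0.18. Against both kinds of control the members' median was 0.15, that of all genes 0.003, and the SD of the members' median between control libraries 0.109. By cluster, 18 of 22 gamma genes (median 0.20), 17 of 22 beta genes (0.13) and 9 of 14 alpha genes (0.08) were higher.

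The member with the smallest p-value was the gamma gene Pcdhgb7, which encodes one of the alternative gamma B proteins. It was at 8.75, 10.1 and 7.39 CPM in the AP2e cKO libraries, at 12.7, 11.9 and 11.01 in flox and at 10.8, 12.6 and 11.8 in Het. All cKO libraries lay below all controls, against 2.72% of all genes with such a gap downwards. The log2 fold change was -0.43 (SE 0.12, edgeR adjusted p = 0.308), and the adjusted p ran from 0.0635 with DESeq2 to 1 over the alternatives.

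The C-type gene Pcdhgc3, the most abundant member, went the other way. It was at 159, 139 and 137 CPM in the AP2e cKO libraries, at 124, 136 and 97.8 in flox and at 114, 109 and 126 in Het. The cKO libraries lay just above all controls, which 2.41% of all genes did, and the log2 fold change was 0.30 (SE 0.11, edgeR adjusted p = 0.391; 0.235 to 1 over the alternatives). Pcdhgb6, the highest gamma B gene, was at 18.4, 18.9 and 20.8 CPM in the cKO and at 13.3 to 18.2 in the controls (log2 fold change 0.27, SE 0.10, edgeR adjusted p = 0.403; 0.337 to 1 over the alternatives). The other leading genes overlapped between the groups: Pcdhac2 was at 77.0 to 109 CPM in the cKO and 46.9 to 107 in the controls, and Pcdhb1 at 50.6 to 62.0 and 40.4 to 61.3.

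The summed markers of 2 of 9 marker lists lay higher in the AP2e cKO without overlap, though edgeR called none of the markers in them. The summed level of 3 immune cell markers, in TPM divided by the TMM factor, was 77.9 to 88.1 in the AP2e cKO and 53.9 to 59.98 in the controls, and that of 4 progenitor markers was 14.01 to 19.3 and 7.79 to 13.3. All 3 immune and all 4 progenitor markers were present in these libraries and had a positive log2 fold change. The other 7 of 9 marker lists overlapped between the groups, VSN markers among them at 1198 to 1574 and 827 to 1259. Their part in the protocadherin values was not tested.

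The OMP cKO gave no called member either. Against its 6 controls, 0 of 58 members passed the same edgeR test over 18623 genes, where 0% of all genes were called, and DESeq2 called 0 members and 0.233% of all genes. At an unadjusted p under 0.05 there were 5 members, all higher in the cKO, or 8.62%, against 3.95% of all genes. By sign, 34 of 58 were higher (58.6%, against 48.7% of all genes), with a median log2 fold change of 0.07 beside an SD of 0.0536 between control libraries. Against flox alone 43 were higher, with a median of 0.14, and against Het alone 29, with a median of 0.0021. By cluster, with no test between them, 16 of 22 gamma genes (median 0.25), 10 of 14 alpha genes (0.19) and 8 of 22 beta genes (-0.02) were higher.

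Pcdha2, one of the alternative alpha genes, was at 9.31, 9.55 and 9.62 CPM in the OMP cKO libraries, at 7.36, 6.98 and 7.37 in flox and at 4.79, 6.34 and 5.39 in Het. All cKO libraries lay above all controls, against 1.41% of all genes. Groups lay apart upwards for 3 members and downwards for 0, where 0.95% of all genes did so downwards. The log2 fold change was 0.58 (SE 0.15, edgeR adjusted p = 0.919; 0.154 to 1 over the alternatives), 0.39 against flox alone and 0.79 against Het alone. Its counts come from a pair of transcripts that salmon filled in turn, each at 0 in some libraries, and both share their end with the other alpha genes.

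The other members at an unadjusted p under 0.05 were the gamma A genes Pcdhga10, Pcdhga11, Pcdhga5 and Pcdhga3, which also share their downstream exons. Pcdhga10 was at 11.9, 13.5 and 11.3 CPM in the OMP cKO and at 7.63 to 10.9 in the controls, with a log2 fold change of 0.45 (SE 0.13, edgeR adjusted p = 1). Pcdhga5 was at 13.1, 12.4 and 13.4 CPM and at 8.98 to 11.4 in the controls (log2 fold change 0.34, SE 0.11, edgeR adjusted p = 1). These genes did not overlap between the groups, as Pcdha2 did not. Pcdhga11 (0.41, SE 0.13) and Pcdhga3 (0.34, SE 0.13) did overlap. In this line all 9 marker lists overlapped between cKO and controls.

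**Figure D4:**
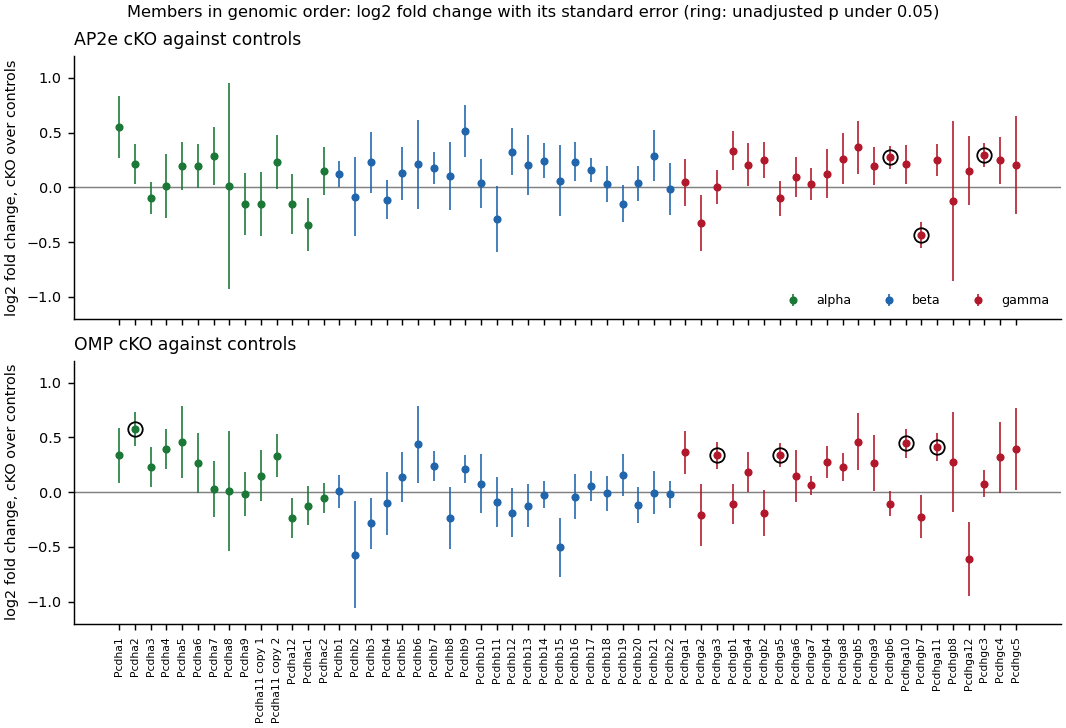
The log2 fold change of each member (dot) and its standard error (line) is plotted in genomic order for the AP2e cKO (upper panel, 9 libraries) and the OMP cKO (lower panel, 9 libraries), each against the controls of its line, with rings at an unadjusted p under 0.05. No gene was called in either panel; 44 of 58 dots lie above 0 in the upper and 34 of 58 in the lower.

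The cKO effects of the lines were not shown to differ for any member. The interaction between cKO and line called 0 of 58 members with edgeR (0% of 19465 genes) and 0 with DESeq2 (0.0984% of all genes), and 2 members, or 3.45%, had an unadjusted p under 0.05, against 4.91% of all genes. For Pcdhgb6 the effect in the OMPCre line was lower than that in the AP-2εCre line by a log2 difference of -0.38 (SE 0.15, edgeR adjusted p = 1), and for Pcdhga5 it was higher by 0.44 (SE 0.20, edgeR adjusted p = 1). The members' median difference was 0.03.

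The kinds of control were also compared with each other, heterozygous Cre against flox. In the AP-2εCre line, 0 of 58 members were called by edgeR (0.0224% of all genes) and 0 by DESeq2 (0.944%). At an unadjusted p under 0.05 there were 3 members, 5.17% against 5.18% of all genes, and 23 of 58 were higher in Het (39.7% against 51.6%). Pcdhga6 was at 8.64, 10.1 and 10.8 CPM in Het and 6.67, 6.60 and 8.14 in flox, a log2 fold change of 0.47 (SE 0.16, edgeR adjusted p = 0.820). Pcdhgb4 was at 5.07, 6.76 and 7.75 CPM in Het and 11.1, 10.3 and 7.99 in flox (-0.58, SE 0.21, edgeR adjusted p = 0.880), and Pcdha2 at 4.21, 4.64 and 4.95 and at 5.66, 6.26 and 7.04 (-0.46, SE 0.18, edgeR adjusted p = 0.931). Tested on its most abundant transcript alone, Pcdha2 turned direction, to a log2 fold change of 0.048. The groups of these 3 genes did not overlap. Over all members, 2 lay apart upwards (5.03% of all genes did) and 8 downwards (4.78%). AP2e Het replicate 1 was the lowest library of the line for Pcdhac2, at 46.9 CPM against 77.0 or more in the other libraries of the line.

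In the OMPCre line, edgeR called 0 of 58 members between Het and flox, against 0.0441% of all genes, and DESeq2 called 1, against 0.883%. At an unadjusted p under 0.05 there were 8 members, or 13.8%, against 5.54% of all genes. By sign 43 of 58 were higher in Het (74.1%, against 49.1%), and 11 members (19.0%, against 6.6% of all genes) were higher with no overlap of the groups, while 2 were lower (5.02% of all genes were). The members' median log2 fold change was 0.11, beside an SD of 0.0453 between control libraries. Marker sums moved too: 3 olfactory sensory neuron markers were at 56.1 to 68.1 in Het and 30.3 to 45.2 in flox, and 3 fibroblast markers at 3377 to 5612 and 2081 to 3198, in TPM divided by the TMM factor. None of these markers was called by edgeR, and their part in these values was not tested.

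Pcdhgc4 had the smallest p-value of all members in any comparison. It was at 11.4, 16.6 and 21.7 CPM in the OMP Het libraries, at 32.3, 32.1 and 35.6 in flox and at 35.2, 26.9 and 31.2 in cKO, so the Het group lay below both others. The log2 fold change of Het against flox was -1.01 (SE 0.22, edgeR adjusted p = 0.542). DESeq2 called it, with an adjusted p of 0.00293; over all alternatives the adjusted p ran from 0.00293 to 0.995. The change sat on the short transcript, ENSMUST00000195239.1, whose counts were 628, 907 and 1247 in Het and 1924, 2142 and 1821 in flox (log2 fold change -1.14, SE 0.26, edgeR adjusted p = 0.602 over transcripts). Counted only over transcripts with at least 1000 bases of their own, Pcdhgc4 had a log2 fold change of -0.08 (SE 0.41, edgeR adjusted p = 0.995), and its level was 0.254, 0.411 and 0.802 TPM in Het and 0.389, 0.441 and 0.384 in flox. In the short transcript 93.1% of the windows were shared with at least 5 other members. At the low counts of the full-length transcript, 0 to 231 in these 6 libraries, a change of the size seen in the gene table was within 3 SE of the estimate.

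The remaining members named in this comparison were higher in Het. Pcdhga12, the last of the gamma A genes, was at 5.71, 3.74 and 6.59 CPM in Het and 2.42, 2.74 and 3.31 in flox, with a log2 fold change of 0.92 (SE 0.27, edgeR adjusted p = 0.763). Pcdhb1, whose windows were all unique, was at 59.4, 56.7 and 64.3 CPM and at 44.4, 41.8 and 54.4 (0.36, SE 0.12, edgeR adjusted p = 0.860). Pcdhgc3 was at 121, 123 and 146 CPM and at 111, 112 and 100.5 (0.27, SE 0.10, edgeR adjusted p = 0.876). For these genes every Het library lay above every flox library, and the same held for Pcdhga6 (0.63, SE 0.20) and Pcdhb20 (0.43, SE 0.15). Pcdhga12, Pcdhgc3 and Pcdhga6 share exons with the short Pcdhgc4 transcript, which was lower in Het. The part of salmon's division of shared reads in these values was not tested.

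**Figure D5:**
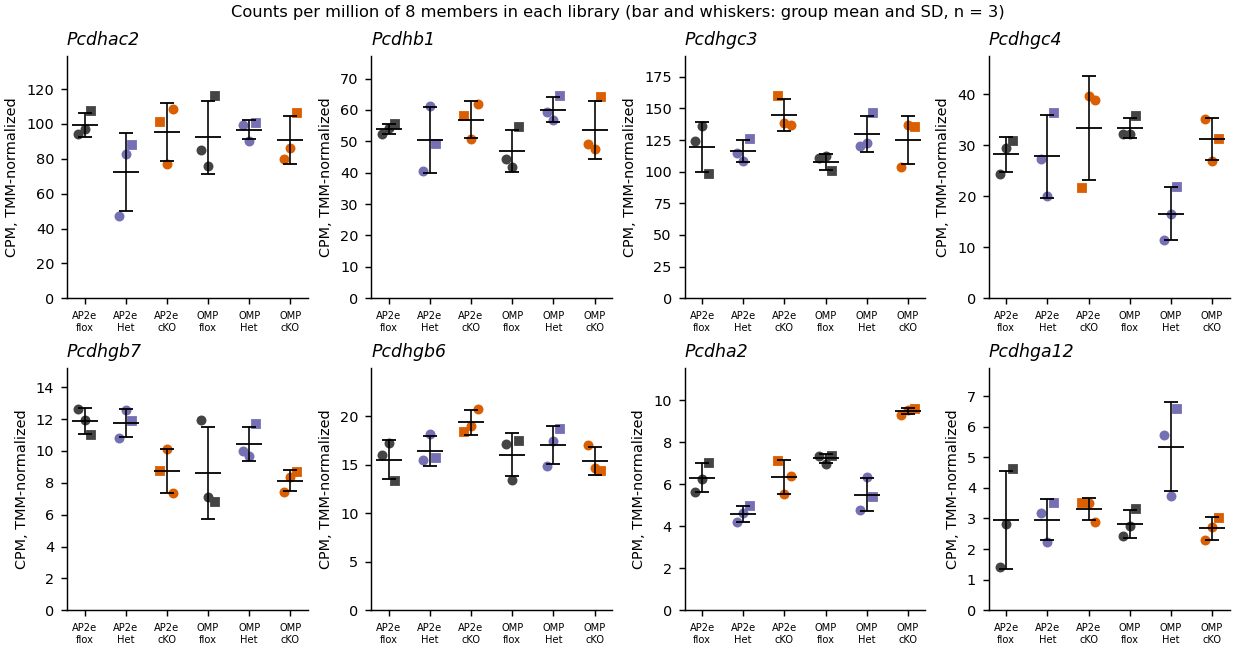
TMM-normalized CPM of 8 members in each of the 18 libraries by group, with the group mean and SD (n = 3) and squares for libraries named by line. Pcdhgc4 has its lowest group mean in OMP Het (libraries at 11.4 to 21.7 CPM), though single AP2e libraries lie within that range. Pcdha2 is highest in OMP cKO (9.31 to 9.62 CPM), and Pcdhgb7 is lower in AP2e cKO (7.39 to 10.1 CPM) than in all 6 controls of that line.

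Since the Het and flox libraries are also the controls of the cKO comparisons, the values of a gene in both are not independent. The Het against flox log2 fold change of Pcdha2 was -0.46 for AP-2εCre (0.048 on its most abundant transcript alone) and -0.40 for OMPCre, and that of Pcdhga6 was 0.47 and 0.63. None of these was called.

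The controls of the lines were compared last. Between the 6 OMPCre and the 6 AP-2εCre controls, with the kind of control as a term, 0 of 58 members were called by edgeR, against 0.0972% of all genes, and 0 by DESeq2, against 0.751%. At an unadjusted p under 0.05 there were 2 (3.45%, against 6.5%), and 31 of 58 were higher in the OMPCre line (53.4%, against 51.4%). Pcdha3 was lower in the OMPCre controls by a log2 fold change of -0.39 (SE 0.15, edgeR adjusted p = 0.670), at 4.74 to 8.14 CPM against 7.40 to 10.3. Pcdhgb7 was lower by -0.31 (SE 0.14, edgeR adjusted p = 0.760), at 6.79 to 11.9 against 10.8 to 12.7. No member separated the groups, against 0.265% of all genes upwards and 0.238% downwards.

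Other genes of the pathway were not called by edgeR in any of the 6 comparisons. Of 12 non-clustered protocadherins, 11 had a positive log2 fold change in the AP2e cKO, where 50.6% of all genes did, with a median of 0.17, and Pcdh15 had the smallest p (0.38, SE 0.16, edgeR adjusted p = 0.451). Their summed level, in TPM divided by the TMM factor, was 57.0 to 64.4 in AP2e Het and 65.0 to 106.5 in AP2e flox, without overlap, and it overlapped between the groups in both cKO comparisons and in OMP Het against flox. In the OMP cKO 6 of the 12 were positive, as were 48.7% of all genes, and Pcdh7 had the smallest p (0.31, SE 0.10, edgeR adjusted p = 1). Among 17 regulators of promoter choice and chromatin, 12 were positive in the AP2e cKO and 6 in the OMP cKO, to be read against the same shares of all genes. Dnmt3a, a DNA methyltransferase that sets new methylation marks, had a log2 fold change of 0.31 (SE 0.08, edgeR adjusted p = 0.294) in the AP2e cKO. In the list of 15 partners and processing enzymes, 10 were positive in the AP2e cKO and 7 in the OMP cKO. Nlgn2, a postsynaptic adhesion protein on that list, had the smallest p in the AP2e cKO (0.26, SE 0.10, edgeR adjusted p = 0.403). In the other comparisons the genes of these lists with the smallest p were Pcdh11x (log2 fold change 0.82) and Pcdh15 (-0.38) in AP2e Het against flox, the DNA demethylase Tet2 (0.29) in OMP Het against flox, the maintenance methyltransferase Dnmt1 (-0.30) in the difference between the lines and the actin regulator Wasf1 (0.40) between the control lines.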

How the data were processed

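The authors quantified single-end 75-base reads of polyA mRNA libraries with salmon; per the labels, versions were Salmon 0.14.0 and DESeq2 1.22.2 on GRCm38 (mm10). The deposited estimated counts (expected counts, not normalized) and the deposited TPM per transcript were used. The study's methods name a coding-sequence reference, but the deposited transcript lengths equal those of whole GENCODE transcripts with UTRs; TPM are as deposited, and windows and shared bases were computed on whole transcripts. Of 116248 transcripts, 116072 were joined to genes with GENCODE vM21; 176 had no gene there and carried up to 0.0324% of the counts. Estimated counts were summed per gene and rounded. The authors' effective lengths entered only the alternative with counts from length-scaled TPM.

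Each comparison was fitted over all genes with edgeR 4.0.16 (R 4.3.3): TMM, filterByExpr, quasi-likelihood test (two-sided) and Benjamini-Hochberg adjustment, with a call at an adjusted p under 0.05. All 58 members passed the filter in all 6 comparisons. CPM were TMM-normalized over all libraries; TPM were divided by the TMM factor where stated. The test was checked on simulated counts.

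Levels were printed for the C-type genes and for the 3 highest and the lowest gene of each cluster; per comparison, called members and up to 6 others with the smallest unadjusted p under 0.05 were named. Members and lists were chosen with earlier results of these data known. The labels call the libraries of a group biological replicates; whether each came from 1 animal is not given in the sources used here. The closest libraries differed by a chi-square of 44.3 per gene, so none was a duplicate. Alternatives were DESeq2 1.42.0, its size factors, another filter, length-scaled counts, single transcripts, 1 fit of 18 libraries, the name series, a replicate block, other controls, the library with conflicting labels and each library left out. Python 3.11.15, pandas 2.3.3, numpy 2.4.6 and matplotlib 3.10.9 were used. No sequences were printed.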

Additional observations from a re-analysis of the deposited data

Results flagged for a closer look

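Of the 42 sets of 6 control libraries checked for a library far from the others (18 genes and 3 cluster sums in 2 lines), 1 was found, where chance gives about 1 in 20: Pcdhac1 was at 7.35 CPM in OMP flox replicate 2, against 10.98 to 12.9 in the other OMPCre controls. The library with conflicting labels, kept out of the main fits, lay above all 6 AP-2εCre controls in several values. Its alpha sum was 37.0 TPM against 16.5 to 34.8 in the controls, and its beta sum 58.0 TPM against 31.3 to 47.2. Its gamma sum lay inside the controls, at 71.6 TPM against 52.0 to 71.7 and at 308 CPM against 270.5 to 338. Pcdhb1 was at 74.0 CPM there against 40.4 to 61.3, Pcdhgb6 at 20.9 against 13.3 to 18.2 and Pcdhga3 at 11.7 against 6.11 to 8.34. Pcdha2 at 7.47 CPM (4.21 to 7.04 in the controls) and Pcdhgb7 at 13.0 (10.8 to 12.7) lay only slightly above.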

How the results depend on the processing

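The count of called members was 0 in the 6 comparisons under 59 of 60 alternatives and in 60 of 60 fits with 1 library left out; DESeq2 gave 1 in OMP Het against flox (Pcdhgc4). With the replicate block, the number called was 0 in all 6. The labels tie the numbers to no shared litter or day, and not every same-numbered pair was correlated: 2 of 9 pairs in the AP-2εCre line and 7 of 9 in the OMPCre line had a correlation of deviations over 0.1, and 2 and 7 of 9 libraries correlated best with their own number. In the OMPCre line all 9 same-numbered pairs also shared the series of names, at correlations of 0.036 to 0.56, and the 6 pairs of other numbers within a series were at -0.19 to 0.25, so number and series cannot be told apart there.

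The members' median log2 fold change in the OMP cKO, 0.07 as reported, was 0.14 against flox alone and 0.0021 against Het alone. For the difference between the lines it was -0.056 with each transcript tested, and -0.065 (without AP2e cKO replicate 2) to 0.058 with 1 library left out. With 1 library left out it was 0.10 to 0.18 in the AP2e cKO (0.07 against flox alone, 0.18 against Het alone), 0.06 to 0.09 in the OMP cKO, -0.23 (without AP2e Het replicate 2) to 0.00081 in AP2e Het against flox, 0.081 to 0.17 (highest without OMP Het replicate 1) in OMP Het against flox and -0.06 to 0.04 between the control lines. The log2 ratios of cKO to controls in the AP-2εCre line were 0.15 for the beta and 0.21 for the gamma sum in CPM, beside 0.43 and 0.46 in TPM. With 1 library left out, the ratios in TPM ran from 0.22 to 0.53 for alpha, 0.29 to 0.54 for beta and 0.38 to 0.51 for gamma in that line, and the alpha and beta groups stopped overlapping without AP2e cKO replicate 2, the beta groups also without AP2e Het replicate 2 (0.49). In the OMPCre line they changed sign, from -0.22 to 0.15 for alpha, -0.25 to 0.13 for beta and -0.038 to 0.26 for gamma. Pcdha2 in AP2e Het against flox turned to 0.048 when its most abundant transcript was tested alone. The cause of these changes was not tested. Of the 10 highest members, 9 stayed with transcripts of 1000 or more own bases only, an alternative chosen after seeing the data, as were the ratios within 1 series of names.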
